A study of Mus musculus with 2 samples.

Results

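The unfolded protein response is described here through 10 genes, Hspa5, Hsp90b1, Calr, Pdia4, Herpud1, Atf4, Ddit3, Xbp1, Chac1 and Trib3, in single nuclei from mouse eye. They were chosen by name, as rows of the expression matrix that carry these symbols, and make up 10 of 32285 features. All 10 were present. Ddit3 has 2 rows with different Ensembl identifiers, ENSMUSG00000025408 with 510 UMIs (unique molecular identifiers, each counted as 1 RNA molecule) and ENSMUSG00000116429 with 0 UMIs. The study used SeekSpace, which reads the RNA of each nucleus of a frozen section together with its place on a capture chip. Its design names C57BL/6J mice with a missense mutation in 1 copy of Prph2, the gene of a photoreceptor disc protein, and wild types matched for age and sex, with spatial data at 6 months. The library examined, T1, carries no genotype in the labels, so 1 library stands without a group, genotypes could not be compared, and p-values were not computed. According to the labels the tissue was untreated retina, 1 section of 10 micrometres from 1 eye.

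The unfolded protein response lets a cell match the folding capacity of its endoplasmic reticulum (ER) to the load of new secreted and membrane proteins. The sensors IRE1, PERK and ATF6 signal through the transcription factors XBP1, ATF4 and cleaved ATF6, which raise chaperones, degradation factors and, under lasting stress, CHOP. PERK is also 1 of several kinases that raise ATF4, since amino acid shortage and other stresses reach it by the integrated stress response. In the retina the pathway is studied most in photoreceptors, which make large amounts of membrane protein for their outer segments, and in the retinal pigment epithelium (RPE), a secretory and phagocytic layer behind them.

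The library held 17285 barcodes and 55843593 UMIs, and 16867 nuclei remained after filtering, with a median of 1811 UMIs. Clusters were named from marker genes into 17 classes, each written as "rod-like" and so on, of which 8 are retinal. Rod-like nuclei numbered 5729 with a median of 1059 UMIs, and the other classes held between 53 (horizontal-like) and 2221 (amacrine-like) nuclei. The retinal label covers only some of the tissue, since skeletal muscle-like, lens-like, fibroblast-like, melanocyte-like, adipocyte-like and surface epithelium-like nuclei were present, and 2138 nuclei in 7 clusters stayed unnamed. The nuclei lay in 4 separate tissue pieces with 4457, 4145, 3695 and 4570 nuclei. Piece 4 stood apart in sex-linked transcripts of RPE-like nuclei: Xist measured 9.16, 0, 3.01 and 1109 CPM in pieces 1 to 4 (UMIs of a gene among all UMIs of the nuclei, on the usual CPM scale), and the Y-linked Uty 57.2, 88.6, 53.2 and 4.89 CPM. The pieces therefore go against a label of 1 section of 1 eye, and the animals they came from are not identified in the labels.

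The promoters of 5 members are shown because they carry the sequence elements through which the pathway is known to act. Sequences are from RefSeq's annotation of GRCm38.p6, 250 bases before the start of transcription, on the gene's own strand, 5′ to 3′; 10 of 10 members matched by symbol. Capitals mark motif matches. The elements searched on both strands were the ER stress response element ERSE (CCAAT, then 9 of any base, then CCACG, known as a site for NF-Y with ATF6 or XBP1), ERSE-II (ATTGG, 1 of any base, CCACG) and the amino acid response element core TTGCATCA, known as a site for ATF4 with C/EBP partners. Of the promoters printed, Hspa5 lies at chr2:34771840-34772089 (plus strand), Hsp90b1 at chr10:86705445-86705694 (minus), Calr at chr8:84846932-84847181 (minus), Herpud1 at chr8:94386179-94386428 (plus) and Chac1 at chr2:119350992-119351241 (plus).
Hspa5: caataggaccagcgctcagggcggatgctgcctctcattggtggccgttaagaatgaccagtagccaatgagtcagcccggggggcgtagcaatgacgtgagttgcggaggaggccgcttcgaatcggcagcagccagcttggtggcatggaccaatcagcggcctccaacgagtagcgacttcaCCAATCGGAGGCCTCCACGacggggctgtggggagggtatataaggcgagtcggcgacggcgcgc
Hsp90b1: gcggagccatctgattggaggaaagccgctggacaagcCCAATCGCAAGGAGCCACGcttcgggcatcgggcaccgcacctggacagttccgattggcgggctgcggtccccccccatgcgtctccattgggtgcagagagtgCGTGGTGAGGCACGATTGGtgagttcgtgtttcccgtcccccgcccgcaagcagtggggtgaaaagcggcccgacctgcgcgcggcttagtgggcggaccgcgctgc
Calr: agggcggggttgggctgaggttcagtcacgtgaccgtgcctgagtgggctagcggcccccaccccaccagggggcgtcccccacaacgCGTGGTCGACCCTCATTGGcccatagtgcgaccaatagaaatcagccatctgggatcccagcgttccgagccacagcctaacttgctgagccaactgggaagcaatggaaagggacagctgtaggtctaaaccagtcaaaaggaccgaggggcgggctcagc
Herpud1: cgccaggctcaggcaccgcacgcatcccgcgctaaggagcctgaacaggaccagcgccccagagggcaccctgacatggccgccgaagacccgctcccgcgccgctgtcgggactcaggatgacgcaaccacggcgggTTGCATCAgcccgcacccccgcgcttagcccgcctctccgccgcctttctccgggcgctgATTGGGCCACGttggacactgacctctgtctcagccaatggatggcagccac
Chac1: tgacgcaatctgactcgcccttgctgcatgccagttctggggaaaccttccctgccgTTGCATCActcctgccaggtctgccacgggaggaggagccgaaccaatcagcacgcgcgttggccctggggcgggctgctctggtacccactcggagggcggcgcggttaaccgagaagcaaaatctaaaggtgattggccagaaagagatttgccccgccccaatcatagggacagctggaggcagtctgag

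ERSE was matched in 3 of 10 member promoters, Hspa5 (bases -65 to -47 from the start), Hsp90b1 (-212 to -194, and -107 to -89 on the opposite strand) and Calr (-162 to -144, opposite strand), against 37 of 32851 promoter windows of the same length (0.113%). ERSE-II was matched in Herpud1 alone among the members (-52 to -42), against 10 windows in all (0.0304%). The amino acid response element core was matched in Herpud1 (-112 to -105) and Chac1 (-193 to -186), against 260 windows (0.791%). Herpud1 therefore carried letters of both kinds in 1 window, at places that do not overlap, and Pdia4, Atf4, Ddit3, Xbp1 and Trib3 carried none of the 3. A match describes the letters and is not evidence of binding.

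The ER chaperones were highest in RPE-like, microglia or macrophage-like and surface epithelium-like nuclei. Levels are pooled CPM over the nuclei of a class with exact Poisson 95% intervals, which cover counting error only, as do all intervals below. Hspa5 encodes BiP, the main Hsp70 chaperone of the ER lumen and the protein that holds the sensors inactive. It measured 138 CPM (126 to 150.5) in RPE-like nuclei, with 136, 155, 139 and 125 CPM in pieces 1 to 4, and 127 CPM (105 to 151) in microglia or macrophage-like nuclei. It was lowest in rod-like nuclei at 17.8 CPM (15.04 to 21.0), below endothelium-like nuclei at 29.5 CPM (18.0 to 45.5), whose interval overlapped that of rod-like nuclei.

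Hsp90b1, the ER member of the Hsp90 family (GRP94), measured 118 CPM (97.1 to 142) in microglia or macrophage-like, 109.7 CPM in RPE-like and 109 CPM in lens-like nuclei, 3 neighbours whose intervals overlapped. Its low end was skeletal muscle-like nuclei at 31.9 CPM and rod-like nuclei at 36.8 CPM. Calr, a calcium-binding lectin chaperone, measured 249 CPM (193 to 316) in surface epithelium-like nuclei, ahead of RPE-like nuclei with 221 CPM (206 to 236) and fibroblast-like nuclei with 209 CPM (186 to 234). After each nucleus was thinned to 500 UMIs, Calr in surface epithelium-like nuclei stood at 433 CPM, with a UMI in only 11 of 60 nuclei. Pdia4, a protein disulfide isomerase, stood at 56.5 CPM in RPE-like nuclei (49.0 to 64.7), beside 55.3 CPM in microglia or macrophage-like nuclei (41.3 to 72.5), and was lowest in skeletal muscle-like nuclei at 8.86 CPM (6.10 to 12.4). No chaperone had 1 class clear of the next, and RPE-like nuclei were among the 3 highest classes for each of the 4.

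Herpud1 and Atf4 had another order, led by horizontal-like nuclei. Herpud1, an ER membrane protein of the ER-associated degradation machinery, measured 99.9 CPM (71.0 to 137) in horizontal-like nuclei, 83.5 CPM in skeletal muscle-like, 71.2 CPM in lens-like and 67.1 CPM in ganglion cell-like nuclei. It was lowest in rod-like nuclei at 12.3 CPM (9.96 to 14.9) and cone-like nuclei at 12.6 CPM (8.06 to 18.7). Atf4, the transcription factor translated when eIF2α is phosphorylated, measured 149 CPM (113 to 192) in horizontal-like, 104 CPM (93.0 to 115) in ganglion cell-like, 94.3 CPM (81.0 to 109) in cone-like and 89.7 CPM (83.2 to 96.4) in rod-like nuclei. Each other class stayed at or below 62.8 CPM. The horizontal-like values rest on 53 nuclei with 39 Herpud1 and 58 Atf4 UMIs. On thinned nuclei they stood at 189 and 302 CPM, with a UMI in only 5 and 8 of the 53 nuclei. Since ATF4 is controlled largely by translation, its RNA level is not its protein level.

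Xbp1, whose RNA is spliced by IRE1 to encode an active factor, measured 91.4 CPM (73.1 to 113) in microglia or macrophage-like nuclei and 76.4 CPM (54.3 to 104) in adipocyte-like nuclei. Of the 86 Xbp1 UMIs in microglia or macrophage-like nuclei, 15 lay in 1 nucleus. The leading genes of that class include the immunoglobulin chain genes Igkc and Igha, known markers of plasma cells, which are rich in XBP1 and ER chaperones. Levels were also taken without the 5 of its 425 nuclei that held 10 or more UMIs of these 2 genes. Xbp1 then stood at 57.2 CPM (42.8 to 74.8), below adipocyte-like nuclei with overlapping intervals. Hsp90b1 stood at 106 CPM (85.9 to 129), no longer highest but below RPE-like (109.7 CPM) and lens-like (109 CPM) nuclei, with overlapping intervals. Hspa5 stood at 121 CPM and Pdia4 at 48.6 CPM. Microglia or macrophage-like nuclei stood at 60.5 CPM of Xbp1 after thinning, and spliced and unspliced forms are not separated in the counts. Xbp1 was lowest in rod-like nuclei at 15.1 CPM (12.5 to 18.0), followed by skeletal muscle-like nuclei at 15.6 CPM. Ddit3, which encodes CHOP, was low throughout: 497 UMIs in all kept nuclei, and 25.0 CPM (14.3 to 40.6) from 16 UMIs in melanocyte-like nuclei, against 12.6 CPM in cone-like nuclei, with overlapping intervals. Trib3, a pseudokinase induced by ATF4 and CHOP, had 212 UMIs in all and measured 16.2 CPM (10.3 to 24.4) in fibroblast-like and 14.7 CPM (7.07 to 27.1) in endothelium-like nuclei. The fibroblast-like class joins a cluster of 144 nuclei, with 18 Trib3 UMIs and 73.1 CPM (43.3 to 116), and a cluster of 628 nuclei, with 5 UMIs and 4.27 CPM (1.39 to 9.97), so the pooled level describes neither. Of the 23 fibroblast-like Trib3 UMIs, 14 lay in piece 2, and without that piece the level was 8.69 CPM.

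**Figure D1:**
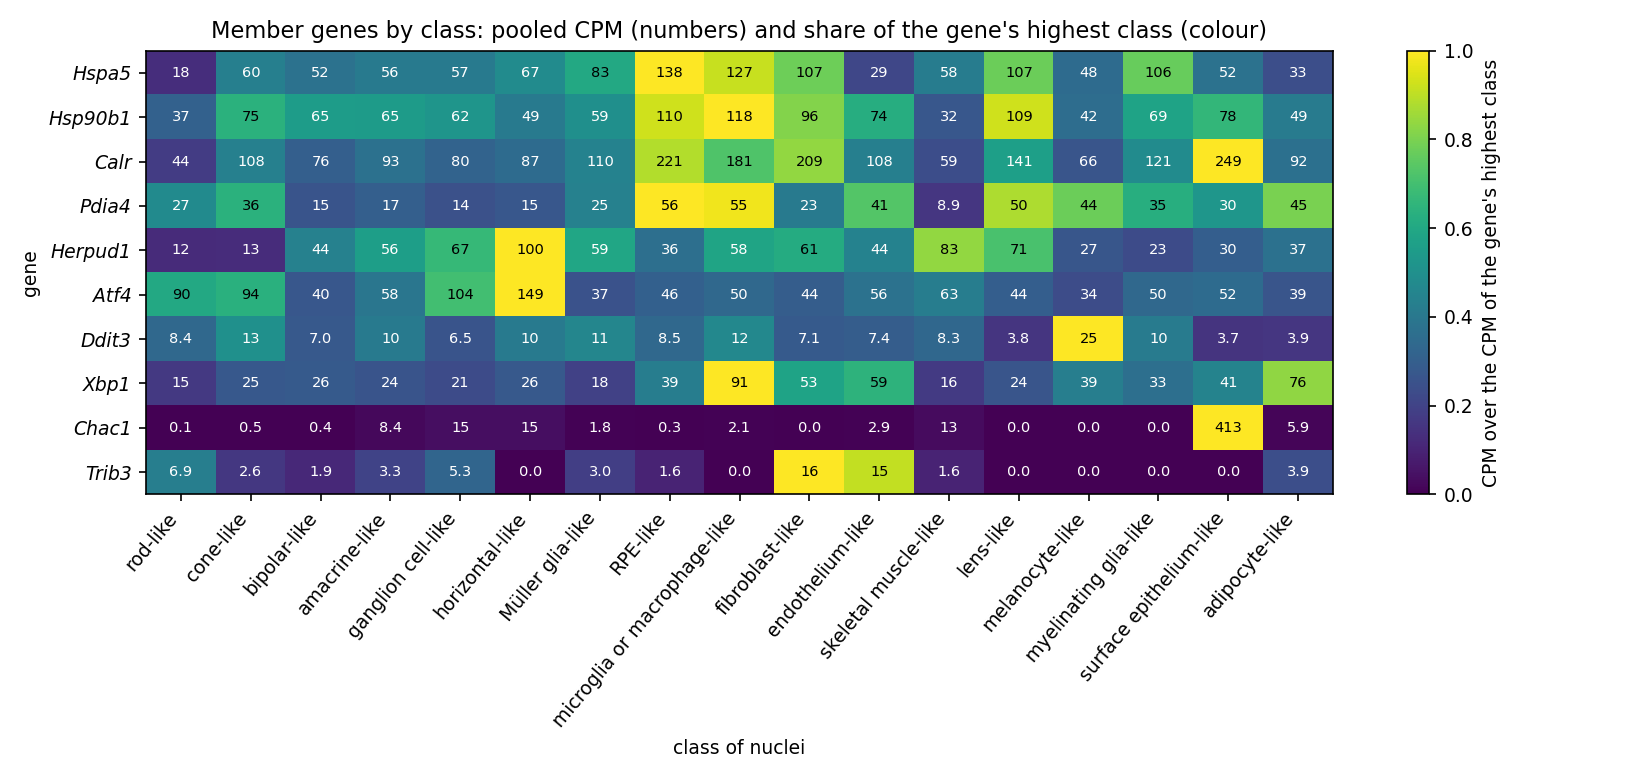
Pooled CPM of the 10 genes (rows) in 17 classes of nuclei (columns). Numbers are CPM and colour is the share of the gene's highest class, so colours compare classes within a gene. Chac1 is bright in surface epithelium-like nuclei alone (413 CPM), the 4 chaperones are bright in RPE-like and microglia or macrophage-like nuclei, and Herpud1 and Atf4 are brightest in horizontal-like nuclei.

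Chac1 had the sharpest pattern. It encodes a glutathione-degrading enzyme that is a known target of the ATF4 and CHOP arm. It measured 413 CPM (339.6 to 497) in surface epithelium-like nuclei, 26.9 times the 15.4 CPM (5.64 to 33.4) of horizontal-like nuclei, the next class. In the 4 pieces it measured 406, 589, 439 and 90.9 CPM, from 14, 37, 56 and 4 UMIs, so piece 4 was low and pieces 1 to 3 were alike within about 1.5 times. These 62 nuclei gave 111 UMIs, 32.5% of the 342 Chac1 UMIs of all kept nuclei. A Chac1 UMI was present in 29 of the 62 nuclei (46.8%, exact interval 34.0 to 59.9%, median depth 2039.5 UMIs), and in 14 of 60 (23.3%) after thinning to 500 UMIs. In RPE-like nuclei, with a median of 2938.5 UMIs, 1 of 660 had one (0.152%). The signal was spread over nuclei: 19 had at least 2 UMIs, the most in 1 nucleus was 12, and the 5 nuclei with most held 52.

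A gene counted as class-high when its highest class had 20 or more UMIs and a lower bound 2 or more times each other class's upper bound. Chac1 was the only class-high gene among the 9 members measured, and 15% of 13627 genes measured were class-high (Ddit3 fell under 20 UMIs). Leaving out piece 2 or piece 3 brought the surface epithelium-like class to 39 and 44 nuclei, under the minimum of 50, and ended the call, with Chac1 still at 359 and 389 CPM there. Thinning left 19 Chac1 UMIs, at 633 CPM, under the minimum of 20. Some genes of the wider lists were class-high in the same nuclei: Hspa1b, an inducible cytosolic Hsp70, at 197 CPM, and the immediate early genes Fosl2 at 606 CPM and Junb at 182 CPM. They were 1 of 8 heat shock genes (12.5%) and 2 of 6 immediate early genes (33.3%) measured, where 15% of all genes were class-high. Hspa1a measured 66.9 CPM, level with 67.0 CPM in rod-like nuclei, and Fos, Jun and Egr1 were highest in other classes. In surface epithelium-like nuclei Hspa5 was 52.1 CPM (28.5 to 87.4), Atf4 52.1 CPM, Ddit3 3.72 CPM from 1 UMI, and Trib3 had 0 UMIs, with an upper bound of 13.7 CPM. The part of heat shock and early gene transcription in the Chac1 level was not tested.

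**Figure D2:**
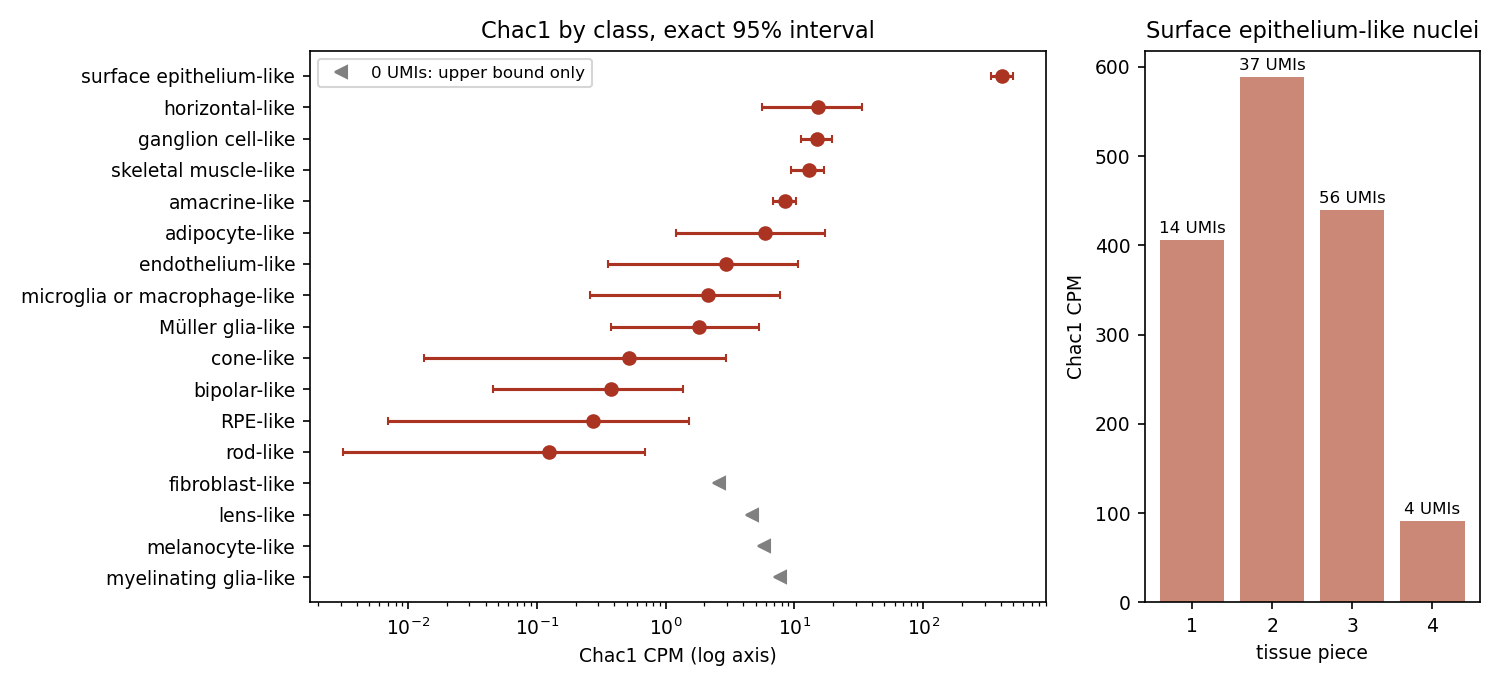
Left, Chac1 CPM by class on a log axis with exact 95% intervals, where arrows give the upper bound of the 4 classes with 0 UMIs. Right, Chac1 CPM in surface epithelium-like nuclei of each tissue piece with its UMI count. Surface epithelium-like nuclei stand at 413 CPM, and horizontal-like, ganglion cell-like, skeletal muscle-like and amacrine-like nuclei follow between 15.4 and 8.43 CPM.

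Outside that class, Chac1 was measured mostly in inner retinal neurons and muscle. Ganglion cell-like nuclei measured 15 CPM (11.2 to 19.7) from 51 UMIs, skeletal muscle-like nuclei 12.9 CPM (9.50 to 17.1) from 48 UMIs and amacrine-like nuclei 8.43 CPM (6.79 to 10.3) from 92 UMIs. Rod-like, cone-like and RPE-like nuclei had 1 UMI each and bipolar-like nuclei 2. Fibroblast-like, lens-like, melanocyte-like and myelinating glia-like nuclei had 0, with upper bounds between 2.61 and 7.67 CPM.

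Rod-like nuclei were low in 3 of the 4 chaperones, Herpud1, Xbp1 and Chac1, and high in Atf4 and Trib3. They were set against the other 7 retinal classes pooled, and a gene was called when the 2 exact intervals did not overlap. Of the 10 members, 6 were lower and 2 higher in rod-like nuclei, where 41.8% of 16761 genes measured were lower and 29.6% higher. Hspa5 measured 17.8 CPM in rod-like and 68.4 CPM in the other retinal nuclei, a ratio of 0.261 (0.218 to 0.309). Herpud1 measured 12.3 and 50.1 CPM (ratio 0.244), Calr 44.5 and 107 CPM (0.415), Hsp90b1 36.8 and 70.6 CPM (0.521), and Xbp1 15.1 and 25.6 CPM (0.590). The ratio of Chac1 was 0.0216 (0.000543 to 0.122), from 1 UMI in rod-like nuclei.

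The 2 genes higher in rod-like nuclei were Atf4 and Trib3, 20% of the members, where 29.6% of all genes were higher. Of the other members tied to ATF4 and CHOP, Chac1 was lower and Ddit3 had overlapping intervals. Atf4 measured 89.7 CPM in rod-like and 61.3 CPM in the other retinal nuclei, a ratio of 1.46 (1.34 to 1.60). Trib3 measured 6.93 and 2.94 CPM, a ratio of 2.36 (1.65 to 3.36) from 56 rod-like UMIs. On thinned nuclei 1 member was higher. Pdia4 (1.16) and Ddit3 (0.924) had overlapping intervals. Summed over the 10 genes, rod-like nuclei had 259 CPM and the other retinal nuclei 424 CPM, a ratio of 0.609 (0.581 to 0.639). The median log2 ratio of the members, on CPM plus 1, was -0.82, beside -0.19 for all genes measured. A cluster of 269 nuclei was left unnamed since it carried both rod and cone markers. Under a looser naming rule, Hspa5 in rod-like nuclei was 26.1 CPM and the summed ratio 0.740.

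Taken as a pooled class, RPE-like nuclei were high in the 4 chaperones and Xbp1 and low in Atf4 and Chac1. Of the members, 5 were higher and 2 lower than in the other retinal classes pooled, against 19.4% of genes higher and 44.9% lower. Hspa5 measured 138 CPM in RPE-like and 47.5 CPM in the other retinal nuclei (ratio 2.90, 2.62 to 3.21), Calr 221 and 78.0 CPM (2.83), Pdia4 56.5 and 20.4 CPM (2.77), Hsp90b1 109.7 and 57.4 CPM (1.91) and Xbp1 38.7 and 21.4 CPM (1.81). Atf4 was lower at 45.8 CPM, against 70.3 CPM in the other retinal nuclei (0.651, 0.553 to 0.762), and so was Chac1 with 1 UMI. Herpud1 (0.867), Ddit3 (0.943) and Trib3 (0.400, 0.144 to 0.895) had overlapping intervals. The members summed to 656 and 355 CPM, a ratio of 1.85 (1.77 to 1.93). Their median log2 ratio was 0.37, beside -0.54 for all genes.

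The RPE-like class joined a cluster of 303 nuclei with a median of 1014 UMIs and a cluster of 357 nuclei with a median of 5721. Hspa5 measured 199 CPM (161 to 244) in the shallower and 129 CPM (117 to 142) in the deeper cluster, and Calr 285 and 211 CPM, so both clusters stood above the other retinal nuclei. Atf4 measured 70.7 CPM (48.6 to 99.2) in the shallower cluster, level with the 70.3 CPM of the other retinal nuclei. In the deeper cluster it was 42.1 CPM (35.3 to 49.9), so the low Atf4 of the pooled class was that of the deeper cluster. The part of depth in the differences between the clusters was not tested.

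**Figure D3:**
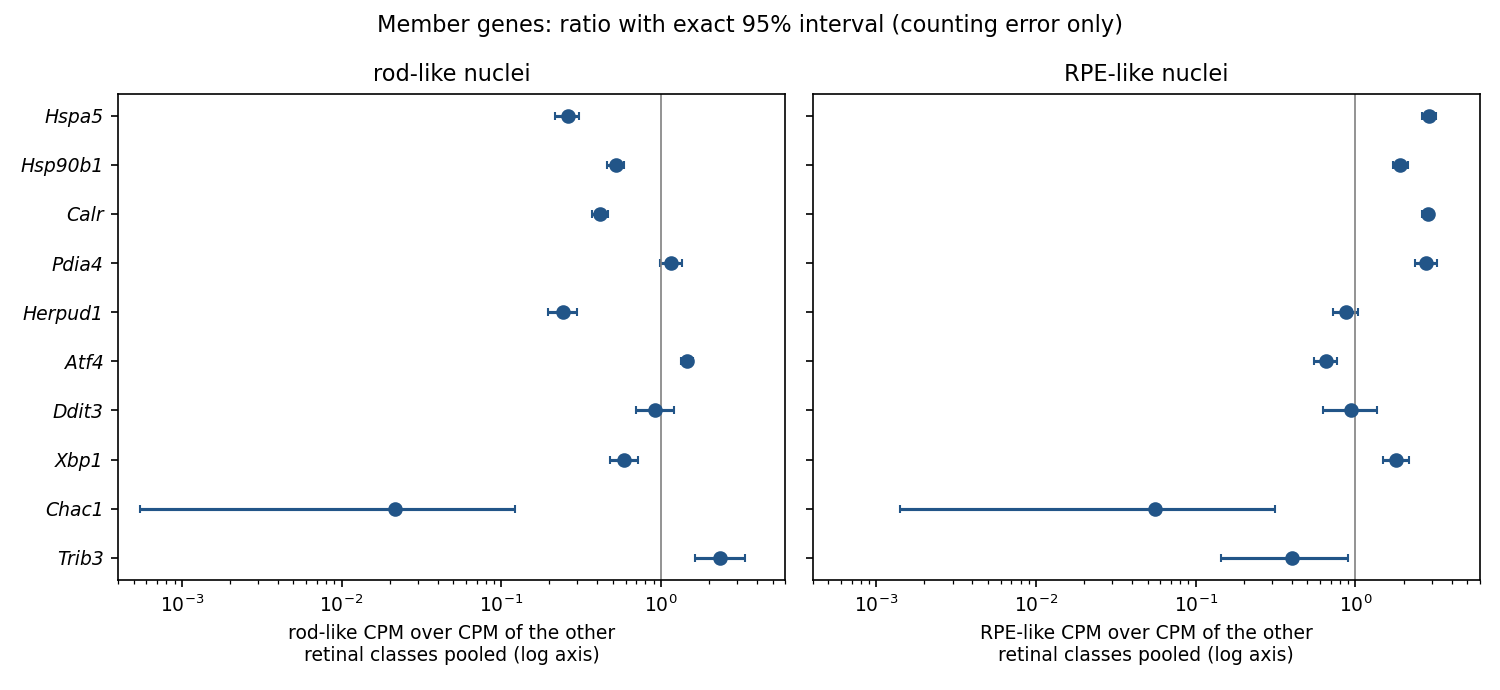
Ratio of each member's CPM in rod-like (left) and RPE-like (right) nuclei to that in the other retinal classes pooled, on a log axis with exact 95% intervals and a line at equal levels. In rod-like nuclei Hspa5, Hsp90b1, Calr, Herpud1, Xbp1 and Chac1 lie left of the line and Atf4 and Trib3 right of it. In RPE-like nuclei Hspa5, Hsp90b1, Calr, Pdia4 and Xbp1 lie right of it.

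Cone-like nuclei shared the high Atf4 and low Herpud1 of rod-like nuclei but not their low chaperones. Atf4 measured 94.3 CPM in cone-like and 66.3 CPM in the other retinal nuclei (ratio 1.42), Pdia4 36.2 and 23.5 CPM (1.54), and Herpud1 12.6 and 43.1 CPM (0.292). They had 2 members higher and 2 lower, where 15.9% and 24.5% of genes were. Cone-like Hspa5 (59.7 CPM, 49.3 to 71.8) lay well above the rod-like 17.8 CPM, at a median depth of 2418 UMIs in cone-like nuclei.

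Ganglion cell-like and horizontal-like nuclei each had 3 members higher, Atf4, Herpud1 and Chac1. In ganglion cell-like nuclei the ratios to the other retinal classes were 1.62, 1.73 and 4.51 in that order, with Calr (0.846) and Pdia4 (0.560) lower, against 20% of genes higher and 30.2% lower. In horizontal-like nuclei the ratios were 2.22, 2.45 and 3.55 and no member was lower, against 7.8% higher and 17.6% lower. The Chac1 ratio of horizontal-like nuclei rests on 6 UMIs and ranged from 1.28 to 7.91. Amacrine-like nuclei had Herpud1 (1.60) and Chac1 (3.16) higher and Pdia4 (0.627) and Atf4 (0.810) lower, against 25.5% higher and 32% lower. Bipolar-like nuclei had 5 members lower, Calr, Pdia4, Atf4, Chac1 and Trib3, and none higher, against 34.3% lower and 13.4% higher. Müller glia-like nuclei had Hspa5 (1.502) and Herpud1 (1.46) higher and Atf4 (0.541) lower, against 18.6% higher and 26.5% lower.

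The wider lists of the pathway were counted in the same way, and each count is set beside the share of all genes called in that class. In RPE-like nuclei, 9 of 14 other ER chaperones and folding enzymes were higher (64.3%) and 2 lower. Of all genes there, 19.4% were higher and 44.9% lower. Of 11 degradation genes 6 were higher and 3 lower there, of 12 sensors and kinases 6 higher and 5 lower, and of 22 targets of ATF4 and CHOP 11 higher and 8 lower. The median log2 ratio of these targets in RPE-like nuclei was 0.55, beside -0.54 for all genes, although Atf4 itself was lower in the pooled class. The higher targets included Psat1, Phgdh and Slc7a5, and the lower ones Asns, Aars and Slc7a11.

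In rod-like nuclei most lists split, at shares near those of all genes (41.8% lower and 29.6% higher). Of the 14 chaperones and folding enzymes 7 were lower (50%) and 3 higher, of 11 degradation genes 5 lower (45.5%) and 3 higher, and of 12 sensors and kinases 7 lower (58.3%) and 4 higher (33.3%). The 4 higher ones were the genes of the 3 sensors and of the protease that cleaves ATF6 at its first site. Ern1, which encodes IRE1, measured 152 CPM in rod-like and 55.0 CPM in the other retinal nuclei. Eif2ak3, which encodes PERK, measured 70.7 and 43.2 CPM, Atf6 156 and 99.6 CPM, and Mbtps1 144 and 96.7 CPM. The 7 lower ones included the related genes Atf6b (25.6 and 31.7 CPM) and Mbtps2 (23.4 and 32.8 CPM). The higher degradation genes were Edem1, Edem2 and Edem3, and the higher folding genes Ero1l, Ero1lb and Sil1. Of 9 cytosolic heat shock genes 5 were lower and 3 higher, and of 9 immediate early genes 4 lower and 1 higher. Among the sensors and kinases, cone-like nuclei also had Ern1 (155 CPM), Atf6 and Mbtps1 higher than the other retinal classes. These were 3 of 12 (25%), with 4 lower (33.3%), where 15.9% of all genes were higher and 24.5% lower in cone-like nuclei.

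Among the 22 targets of ATF4 and CHOP, rod-like nuclei had 14 lower (63.6%) and 2 higher, Atf3 and Ddit4, with a median log2 ratio of -1.06 beside -0.19 for all genes. The stress regulator Ddit4 measured 30.8 CPM in rod-like and 18.5 CPM in the other retinal nuclei, and Asns, asparagine synthetase, 3.47 and 17.1 CPM. Cone-like nuclei, where Atf4 was also high, had 10 of 22 targets lower (45.5%) and 0 higher. Of all genes there, 24.5% were lower and 15.9% higher. Horizontal-like and ganglion cell-like nuclei, also high in Atf4, each had 8 of 22 targets higher (36.4%), with 1 and 5 lower. Of all genes, 7.8% and 20% were higher and 17.6% and 30.2% lower in these classes. Müller glia-like nuclei, low in Atf4 as the pooled RPE-like class was, had 9 targets higher (40.9%) and 4 lower. Of all genes there, 18.6% were higher and 26.5% lower. Amacrine-like nuclei, with Atf4 lower, had 7 targets higher (31.8%) and 8 lower (36.4%), near the 25.5% and 32% of all genes. Bipolar-like nuclei, with Atf4 lower, had 0 higher and 13 lower (59.1%), where 13.4% of all genes were higher and 34.3% lower. The targets thus did not stand in the order of Atf4 over the 8 retinal classes.

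Within the amacrine-like class, a cluster of 251 nuclei led by Tnc and Adarb2 had higher levels of the ATF4 arm. It was chosen after its values had been seen, so its values are a description, and the other 6 clusters were not each compared in this way. Its nuclei came from all 4 pieces (71, 64, 75 and 41). Of the marker genes, Gad1, which makes GABA, measured 788 CPM there and 605 CPM in the other 1970 amacrine-like nuclei, and the glycine transporter gene Slc6a9 107 and 610.1 CPM. Median depth was 4981 UMIs in the Tnc cluster and 4414 in the others. Compared with the other amacrine-like clusters pooled, 4 of 10 members were higher and 0 lower, where 7.51% of 13636 genes were higher and 13.5% lower.

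Chac1 measured 28.6 CPM in the Tnc cluster and 5.80 CPM in the other amacrine-like nuclei, a ratio of 4.94 (3.16 to 7.65). By piece it was 31.0, 30.2, 28.1 and 22.3 CPM in the Tnc cluster, against 6.71, 3.00, 6.14 and 7.72 CPM in the others, so the 2 sets of pieces did not overlap. Atf4 measured 118, 84.5, 66.4 and 134 CPM by piece in the Tnc cluster, against 60.7, 48.5, 52.7 and 50.2 CPM, also without overlap (pooled ratio 1.78, 1.45 to 2.18). Herpud1 was 107, 63.4, 53.6 and 139.7 CPM against 58.5, 50.2, 51.4 and 46.3 CPM (ratio 1.60), and piece 3 fell inside the range of the others. The fourth gene, Trib3, had 12 UMIs in the cluster and a ratio of 3.84 (1.75 to 7.99). By piece it was 22.5, 3.02, 5.11 and 5.59 CPM in the Tnc cluster, against 2.61, 0.858, 3.56 and 2.57 CPM in the others. Piece 1 held 8 of the 12 UMIs, and without it the Trib3 ratio was 1.82 (0.446 to 5.58).

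Of 20 ATF4 and CHOP targets measured, 12 were higher in the Tnc cluster and 1, Vegfa, lower (73.2 and 103 CPM, ratio 0.712). The higher ones included the cystine transporter gene Slc7a11 (31.8 and 3.93 CPM, ratio 8.09), the serine synthesis genes Phgdh (31.0 and 5.07 CPM, 6.12) and Psat1 (25.5 and 6.21 CPM, 4.1), the amino acid transporter gene Slc7a5 (99.4 and 30.5 CPM, 3.26) and Asns (55.7 and 18.2 CPM, 3.06). Their median log2 ratio over the 20 genes was 0.96, beside -0.11 for all genes. The chaperones did not follow: Hspa5 had a ratio of 0.945 (0.722 to 1.22), Hsp90b1 0.969, Calr 0.841 and Pdia4 1.08, and 0 of 13 other chaperones measured and 0 of 11 degradation genes were higher or lower. The count of targets was 7 when clusters were made at resolution 0.5 or from nuclei with at least 500 genes. With nuclei thinned to 500 UMIs, 1 member and 1 target were called.

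**Figure D4:**
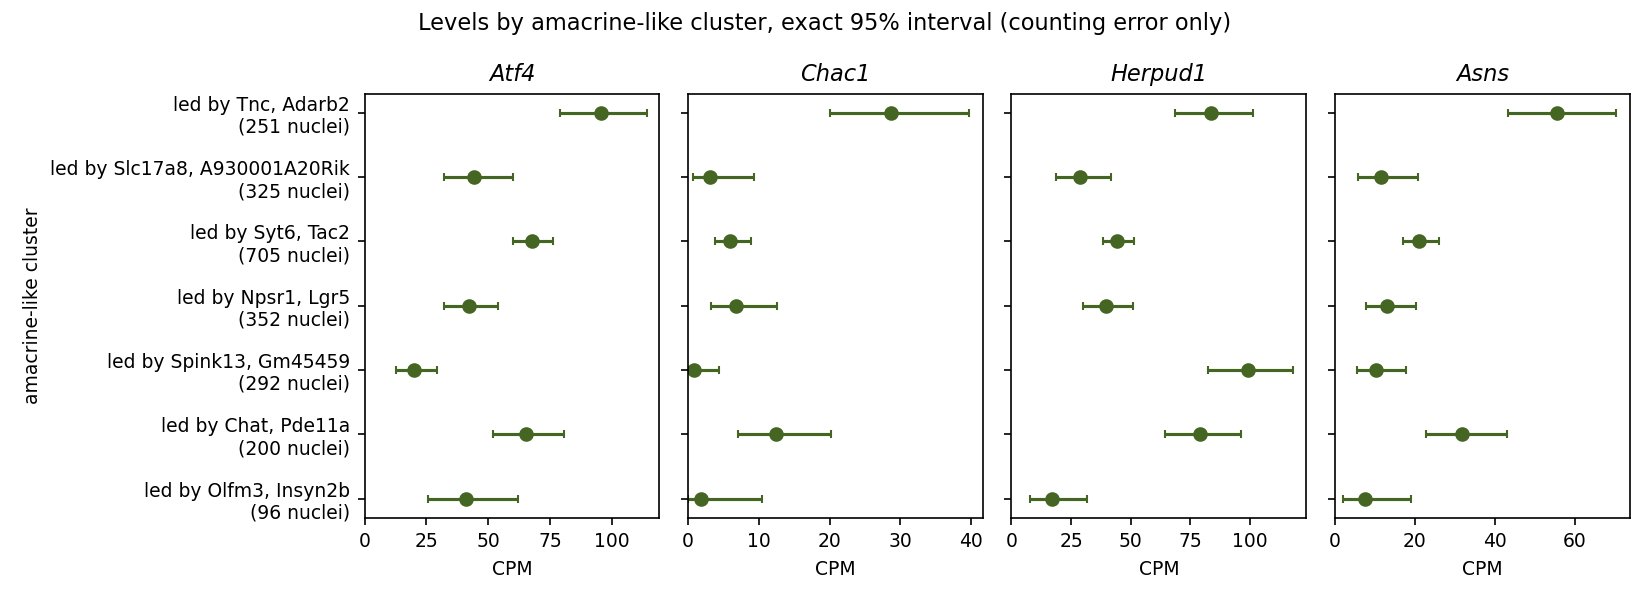
CPM of Atf4, Chac1, Herpud1 and the ATF4 target Asns in each of the 7 amacrine-like clusters, named by their leading genes, with exact 95% intervals. The Tnc cluster is highest for Atf4 (95.5 CPM), Chac1 (28.6 CPM) and Asns (55.7 CPM), while the Spink13 cluster is highest for Herpud1 (99.0 CPM).

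Across the 17 classes, the members that moved most alike were Hspa5, Hsp90b1 and Calr. Pearson's r of log2(CPM + 1) was 0.856 for Hsp90b1 with Calr, 0.673 for Hspa5 with Hsp90b1 and 0.671 for Hspa5 with Calr, while Hspa5 with Atf4 gave -0.24. Pdia4, the other chaperone, gave 0.549 with Hsp90b1, 0.478 with Calr and 0.200 with Hspa5, below its 0.623 with Xbp1. These are descriptions over 17 classes that share 1 library and differ in depth. Among 12989 genes ranked, those most like Hspa5 outside the members were 9530068E07Rik (0.776), Irak1 (0.765), Surf4 (0.751), Slc46a1 (0.743) and Ildr2 (0.725). Those most like Chac1 were Lratd1 (0.818), Psca (0.816), Krt6b (0.811), Asprv1 (0.782) and Cstdc5 (0.777), each highest in surface epithelium-like nuclei, as Chac1 was.

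Rod-like nuclei were then compared between the tissue pieces, which hold 1574, 1336, 1087 and 1732 of them at median depths of 936, 1180.5, 1198 and 1013 UMIs. A gene was called when the bounds of its highest and lowest pieces stood apart by a ratio of 1.5 or more. Calr alone was called, 1 of 9 members with at least 20 rod-like UMIs, where 1.68% of 11214 genes were. At bound ratios of 1.2 and 2, 2 and 0 members were called, where 4.14% and 0.669% of genes were. Calr measured 49.99, 43.0, 21.3 and 56.7 CPM in pieces 1 to 4, from 101, 85, 35 and 138 UMIs, so piece 3 was low and the other 3 were within 1.5 times of each other. Piece 4 over piece 3 gave a ratio of 2.66 (1.83 to 3.98).

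The Calr call did not hold under all settings. On nuclei thinned to 500 UMIs it measured 42.7, 39.9, 32.4 and 46.9 CPM and was not called. In rod-like nuclei under 1000 UMIs it measured 42.1, 57.4, 24.9 and 53.1 CPM, from 28, 21, 7 and 34 UMIs, and in those over 1000 UMIs 53.9, 39.8, 20.5 and 58.0 CPM. Without piece 3, or without piece 4, there was no call. Calr was lowest in piece 3 in 10 of the 17 classes, rod-like nuclei among them, in piece 4 in 5 and in piece 2 in 2. Other members were counted over classes with at least 20 UMIs of the gene. Piece 3 was also most often lowest for Hsp90b1 (8 of 16), Atf4 (7 of 16), Xbp1 (6 of 13) and Herpud1 (5 of 13). Hspa5 (3 of 15), Pdia4 (2 of 14), Ddit3 (2 of 7), Chac1 (1 of 4) and Trib3 (0 of 3) differed. The same count over all genes was not made. For Calr, bipolar-like nuclei measured 83.9, 85.2, 48.9 and 85.7 CPM, and RPE-like nuclei, lowest in piece 4, 243, 227, 257 and 161 CPM. Piece and animal cannot be told apart.

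The other members varied less or on fewer UMIs. Xbp1 measured 9.90, 9.62, 14.0 and 24.6 CPM, with piece 4 over piece 2 at 2.56 (1.51 to 4.55), and it fell short of the call. Hspa5 measured 23.3, 11.6, 12.2 and 22.2 CPM (16.0, 13.8, 13.3 and 31.3 CPM on thinned nuclei). Its intervals overlapped, though pieces 1 and 4 lay above pieces 2 and 3 before thinning. Hsp90b1 measured 32.2, 33.9, 28.6 and 48.5 CPM, highest in piece 4. Pdia4 measured 32.2, 19.7, 24.9 and 29.99 CPM and Herpud1 12.9, 14.2, 13.4 and 9.45 CPM, each with overlapping intervals. Atf4, the member with most rod-like UMIs, measured 100.5, 79.5, 77.2 and 97.4 CPM, a ratio of 1.30 (1.04 to 1.64) between pieces 1 and 3. Ddit3 was level at 7.92, 7.59, 7.90 and 9.86 CPM, and Trib3 at 5.94, 8.10, 6.08 and 7.39 CPM. Chac1 had its 1 UMI in piece 1.

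Summed, the members measured 275, 227, 205 and 306 CPM in pieces 1 to 4, a ratio of 1.49 (1.31 to 1.70) between pieces 4 and 3. The median log2 ratio of highest to lowest piece was 0.63 for the 10 members and 0.46 for all genes with at least 20 rod-like UMIs. On thinned nuclei piece 4 was again highest but piece 2 lowest, at a ratio of 1.27. In 618 rod-like nuclei that carried rod markers and none of 4 other classes the order changed: piece 1 was highest and piece 4 lowest, at a ratio of 1.06 (0.671 to 1.69), and piece 4 over piece 3 was 0.956. Summed rod markers measured 31328, 27011, 25353 and 29828 CPM in the same nuclei, lowest in piece 3 as Calr was, and their part in the pattern was not tested. From the wider lists, Vegfa (18.3, 11.6, 8.51 and 34.5 CPM), Hspa1b (44.5, 24.8, 30.4 and 67.4 CPM) and the early gene Egr1 (8.41, 22.3, 17.0 and 4.93 CPM) were called between pieces. They were 1 of 14 targets of ATF4 and CHOP, 1 of 7 heat shock genes and 1 of 7 early genes measured. Of all genes 1.68% were called, and among 13 chaperones, 11 degradation genes and 10 sensors and kinases 0 were.

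**Figure D5:**
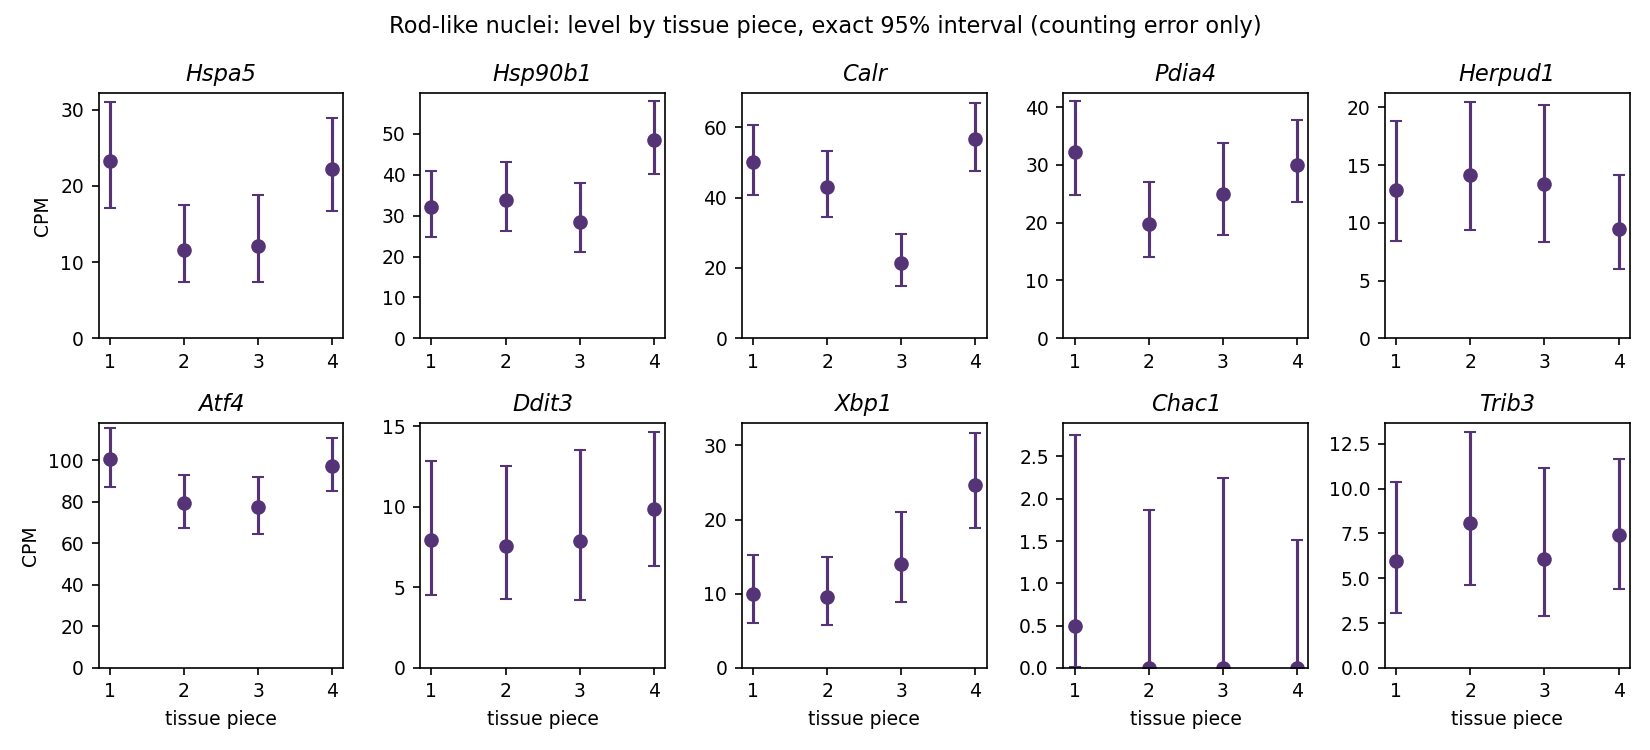
CPM of each member in rod-like nuclei of tissue pieces 1 to 4, with exact 95% intervals and a separate axis from 0 for each gene. Calr is low in piece 3 (21.3 CPM) and Xbp1 high in piece 4 (24.6 CPM), while Ddit3, Trib3 and Herpud1 have wide, overlapping intervals.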

How the data were processed

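The deposited matrix holds raw UMI counts per gene and barcode, made by the authors, and the deposited position table holds chip coordinates, in other units of unstated length. The submitters' processing notes name Seurat 4.1.1, STAR, fastp and mm10. What each did, and the strand setting, intron counting, cell calling and annotation release, were not given in the sources used here. Reads of overlapping or antisense genes therefore cannot be told apart. Later steps used scanpy 1.11.5 with igraph 0.11.9, scikit-learn 1.9.0, anndata 0.12.19 and scipy 1.17.1, on python 3.11.15 with pandas 2.3.3, numpy 2.4.6 and matplotlib 3.10.9.

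Nuclei needed 200 or more genes and under 10% mitochondrial UMIs (328 and 97 barcodes failed). Scrublet marked 0 nuclei, so it had not worked and doublets remain. Clustering used 2000 variable genes, 30 components, 15 neighbours and Leiden resolution 1, with 9 member and list genes left out, and gave 42 clusters. A cluster was named when at least 3 markers of a class stood 2-fold above the rest, on CPM plus 5, and the second score was at most 0.5 of the best. Genes needed 20 UMIs and classes 50 nuclei; scripts were tested on simulated data. Members and lists were chosen with earlier results of these data known. Calls between a retinal class, or the Tnc cluster, and the others pooled were added after the data were seen, as were the looser naming, the omission of pieces, of nuclei with immunoglobulin UMIs and the split of rod-like nuclei at 1000 UMIs. Named genes are the 10 members, up to 4 genes per wider list that were class-high or called between pieces, and 5 of like pattern for Hspa5 and Chac1; Asns, Ddit4, Atf3, the other list genes named for retinal classes and the targets and markers of the Tnc cluster were chosen after their values were seen. The wider lists hold chaperones, degradation genes, sensors and kinases, ATF4 and CHOP targets, cytosolic heat shock genes and immediate early genes. Ero1a, Ero1b and Vimp are not features under those names.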

Additional observations from a re-analysis of the deposited data

How the results depend on the processing

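No paired analysis was possible because the T1 library has no group. Over 28 results and 328 alternative values, 277 stayed the same by the criteria used, 50 moved and 1 reversed; of 224 member levels, 28 moved. The class-high count of 1 became 0 at resolution 0.5, with at least 500 genes and without piece 2 or piece 3 (surface epithelium-like nuclei then numbered 38, 45, 39 and 44, under the minimum of 50), and 0 on thinned nuclei (19 Chac1 UMIs). Members higher in rod-like nuclei numbered 1 when thinned. The summed ratio of rod-like to other retinal nuclei was 0.732 with list genes kept for clustering, 0.675 without the member of most UMIs, 0.740 under looser naming, 0.639 without piece 2 and 0.562 without piece 4; the cause was not tested. Members called between pieces in rod-like nuclei numbered 0 when thinned, at a bound ratio of 2, in strict rod-like nuclei, and without piece 3 or piece 4, and 2 at a bound ratio of 1.2. Their summed highest over lowest ratio was 1.27 when thinned (piece 4 over piece 2). It was 1.06 in strict rod-like nuclei, where the order reversed (piece 1 over piece 4, with piece 4 over piece 3 at 0.956). In the Tnc cluster, ATF4 and CHOP targets higher numbered 7 at resolution 0.5, 7 with at least 500 genes and 1 when thinned, and members higher 1 when thinned, which leaves fewer UMIs. Depth limits Ddit3, Trib3 and Chac1 most, and horizontal-like and surface epithelium-like nuclei, at 53 and 62.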

Other observations

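Herpud1 and Atf4 parted in 1 of the amacrine-like clusters. The cluster of 292 nuclei led by Spink13 had Herpud1 at 99.0 CPM (82.3 to 118) and Atf4 at 19.95 CPM (12.9 to 29.5), the lowest Atf4 of the 7 clusters, with 1 Chac1 UMI. The cluster led by Chat, which makes acetylcholine, had 79.1 CPM of Herpud1, 65.1 CPM of Atf4 and 12.4 CPM of Chac1. Herpud1 and Atf4 were 83.5 and 95.5 CPM in the Tnc cluster and 44.4 and 67.7 CPM in the cluster led by Syt6. They were 39.4 and 42.2 CPM in that led by Npsr1, 28.6 and 44.5 CPM in that led by Slc17a8. In the cluster led by Olfm3 they were 16.8 and 41.0 CPM, so outside the Spink13 cluster the 2 genes stood in about the same order. Outside the neurons, 2 of 18 ATF4 and CHOP targets measured (11.1%) were class-high, a share near the 15% of all genes. Nupr1, a small stress-induced chromatin protein, measured 480.4 CPM in lens-like and 68.5 CPM in fibroblast-like nuclei. Eif4ebp1, an inhibitor of cap-dependent translation, measured 131 CPM in adipocyte-like and 27.6 CPM in microglia or macrophage-like nuclei. No class-high gene was found among 11 chaperones, 10 degradation genes and 10 sensors and kinases measured, where 15% of all 13627 genes were class-high.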
